A study of Mus musculus with 109 samples.

Results

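The cell cycle and proliferation genes described here are 35 genes of S phase and mitosis, taken by their Ensembl gene IDs from a count table of 37315 genes. The libraries of poly(A) RNA came from 109 single retinas, of 64 mice aged 2 to 4 months, and both eyes were sequenced in 45 of the mice. The study asked what 2 cytokines that activate glia, IL1A and TNF, do to the retina and its retinal ganglion cells (RGCs) when injected into the vitreous alone or together, and PBS-injected eyes were the controls. All WT mice were C57BL/6J. In batch 1, WT retinas were taken at day 2 after PBS (n = 31), TNF (n = 8), IL1A (n = 9) or IL1A+TNF (n = 10), at day 14 after PBS (n = 7, of which 2 came from 1 mouse) or TNF (n = 6), and at day 35 after PBS (n = 6) or TNF (n = 9). In batch 2, all retinas were taken at day 2, from WT mice after PBS (n = 5) or IL1A+TNF (n = 6) and from mice lacking the axon degeneration gene Sarm1 (Sarm1-/-) after PBS (n = 6) or IL1A+TNF (n = 6). Sarm1-/- retinas came from batch 2 alone, and no uninjected retina was analysed here.

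A dividing cell copies its DNA once, in S phase, and then parts the copies in mitosis. The MCM proteins form the ring-shaped helicase that is loaded on DNA ahead of replication, while mitotic genes such as Mki67, Top2a and the B cyclins are switched on in late S phase and G2 and are largely silent in resting cells. Neurons and photoreceptors of the adult mouse retina have left the cell cycle, whereas resident microglia, immigrant leukocytes, endothelium and, after injury, glia can divide. In RNA from a whole retina, fewer cells of a type and less RNA per cell cannot be told apart, so a level of Mki67 stands for the tissue and not for a cell.

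The 35 genes were grouped by role. A set of 8 acts in the loading and start of the replicative helicase (Mcm2, Mcm3, Mcm4, Mcm5, Mcm6, Mcm7, Cdc6 and Cdc45), and 3 supply the sliding clamp and nucleotides (Pcna, Tyms and Rrm2). Another 8 are cyclins, kinases and a transcription factor of mitosis (Cdk1, Ccna2, Ccnb1, Ccnb2, Aurka, Aurkb, Plk1 and Foxm1), and 4 belong to the spindle checkpoint and the anaphase promoting complex (Bub1, Bub1b, Cdc20 and Ube2c). The remaining 12 act on chromosomes, kinetochores, the spindle and cytokinesis (Mki67, Top2a, Birc5, Cenpe, Cenpf, Kif11, Kif20a, Kif23, Nusap1, Tpx2, Prc1 and Racgap1).

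Promoters are shown because many of the 35 genes share short words in them. Sequences from RefSeq on GRCm38.p6, from 250 bases before to 50 bases after each start, were matched for 29 of the 35 genes, in 31 promoters; Mcm4, Ccna2, Aurkb, Foxm1, Kif20a and Tpx2 had no entry. Both strands were searched for the cell cycle homology region (CHR; TTTGAA or TTCGAA), an element known from promoters of mitotic genes, for CCAAT, and for E2F words (TTCCCGC or TTGGCGC), known from S phase genes. CCAAT read on the other strand (ATTGG) can share bases with TTGGCGC. A CHR word was found in 19 of the 31 promoters (61.3%) against 19.2% of all 32851 promoters, CCAAT in 27 (87.1%) against 37.4%, and an E2F word in 9 (29%) against 6.81%. By role, E2F words were in 6 of the 8 promoters of helicase genes (75%) and in 1 of the 11 promoters of chromosome and spindle genes, while CHR words were in 3 of the 8 (37.5%) and 8 of the 11 (72.7%). E2F words were in 0 of the 3 promoters of clamp and nucleotide genes, which also act in S phase, in 2 of the 5 of cyclins and kinases and in 0 of the 4 of the checkpoint group. These shares are given as a description, and no difference between roles was tested. All 4 promoters of the checkpoint group held both CHR and CCAAT, and no searched word was in those of Tyms, Birc5 and Nusap1.

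The promoters of 4 genes that are followed through the results are printed 5′ to 3′ on the strand of the gene, with the searched words, on either strand, in capitals. They are Mki67 (chr7:135716330-135716629, minus strand, with 2 CHR, 3 CCAAT and 1 E2F word), Kif23 (chr9:61946750-61947049, minus strand, 1 CHR and 1 CCAAT), Mcm3 (chr1:20820263-20820562, minus strand, 3 CCAAT and 3 E2F, of which 2 E2F words overlap) and Bub1b (chr2:118597961-118598260, plus strand, 2 CHR and 1 CCAAT).
Mki67: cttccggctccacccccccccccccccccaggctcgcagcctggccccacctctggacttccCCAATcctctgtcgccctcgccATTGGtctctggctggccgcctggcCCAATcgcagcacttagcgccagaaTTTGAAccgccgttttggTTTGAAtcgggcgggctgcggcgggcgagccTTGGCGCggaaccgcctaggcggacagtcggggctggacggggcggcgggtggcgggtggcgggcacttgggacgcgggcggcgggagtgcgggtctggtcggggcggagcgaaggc
Kif23: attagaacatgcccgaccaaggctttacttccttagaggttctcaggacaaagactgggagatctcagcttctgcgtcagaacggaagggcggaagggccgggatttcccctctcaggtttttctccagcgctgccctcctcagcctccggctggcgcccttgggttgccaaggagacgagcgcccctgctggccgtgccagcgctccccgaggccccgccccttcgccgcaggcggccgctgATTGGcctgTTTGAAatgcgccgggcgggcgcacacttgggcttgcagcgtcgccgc
Mcm3: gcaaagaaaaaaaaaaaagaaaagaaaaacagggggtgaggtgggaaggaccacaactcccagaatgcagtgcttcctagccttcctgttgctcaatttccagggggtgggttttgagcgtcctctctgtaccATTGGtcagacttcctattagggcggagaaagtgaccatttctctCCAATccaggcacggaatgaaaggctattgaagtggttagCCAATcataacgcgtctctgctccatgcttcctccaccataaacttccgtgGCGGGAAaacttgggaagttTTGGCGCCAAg
Bub1b: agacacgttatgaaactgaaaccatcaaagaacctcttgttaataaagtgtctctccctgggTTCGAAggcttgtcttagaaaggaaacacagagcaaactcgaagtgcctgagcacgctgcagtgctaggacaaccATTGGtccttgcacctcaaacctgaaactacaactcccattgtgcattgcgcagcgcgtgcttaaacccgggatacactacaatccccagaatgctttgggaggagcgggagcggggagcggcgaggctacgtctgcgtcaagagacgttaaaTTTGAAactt

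The total count per retina ranged from 30014757 to 79064488 (median 39374202), and levels are given as CPM, a gene's count scaled to a library of 1000000 counts, after TMM scaling over all 109 retinas. Differences are log2 fold changes from limma with their standard error (SE), and a gene was called when its Benjamini-Hochberg adjusted p over all genes tested (FDR) was under 0.05. Rod markers summed to at least 21900 CPM in every retina, and lens markers summed to over 1000 CPM in 12 retinas spread over 9 groups. Sarm1 itself was lower in Sarm1-/- retinas (43.7 ± 5.8 CPM after PBS and 37.3 ± 7.84 CPM after IL1A+TNF, SD, n = 6 each) than in every WT group (means from 87.9 to 123 CPM), with counts remaining. The labels and methods do not state whether counting used strand, so reads in exons shared with another gene cannot be assigned with certainty; such bases make up 29.3% of the exonic bases of Kif20a, 22.8% of Ube2c, 12.6% of Mcm7, 12.5% of Ccna2, 11.1% of Prc1, 7.1% of Plk1, 6.0% of Cdc45 and at most 4.2% of any other of the genes.

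At day 2 after IL1A+TNF, genes of the replicative helicase rose together in WT retinas. Of the 35 genes, 19 were called higher and 1 lower than after PBS, while 24.9% of all 19548 genes tested were called higher and 25.5% lower. The median log2 fold change of the 35 was 0.268, against -0.023 for all genes tested, and 31 of the 35 were positive. Calls for a rise were made in 7 of 8 helicase genes, 2 of 3 clamp and nucleotide genes, 3 of 8 cyclins and kinases, 2 of 4 checkpoint genes and 5 of 12 chromosome and spindle genes. Ccna2 was the gene called lower.

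Mcm6, a subunit of the helicase, ranged from 5.77 to 12.9 CPM (median 8.03) in the 31 PBS retinas and from 10.7 to 15.7 CPM (median 12.4) in the 10 IL1A+TNF retinas. The ranges overlapped, with the highest PBS retina above the IL1A+TNF median, and the rise was 0.58 ± 0.07 on the log2 scale (SE, FDR = 1.57e-09). Mcm3, another subunit, lay between 2.42 and 7.31 CPM (median 4.51) after PBS and between 5.94 and 12 CPM (median 7.37) after IL1A+TNF, a rise of 0.76 ± 0.10 (FDR = 4.31e-09). Mcm5 rose by 0.47 ± 0.08 (FDR = 2.48e-06), from 5.66 ± 1.04 to 7.96 ± 1.89 CPM (SD). Mcm4 rose by 0.37 ± 0.06 (FDR = 1.57e-07), Mcm2 by 0.25 ± 0.05 (FDR = 3.18e-05) and Mcm7 by 0.23 ± 0.04 (FDR = 9.08e-07). All 10 IL1A+TNF retinas lay above the PBS mean for Mcm2, and 9 of 10 for Mcm7. Each of the 6 subunits of the ring was called higher, and the changes were graded from Mcm7, the smallest, to Mcm3, the largest. Cdc45, which joins the ring when it starts to unwind DNA, rose by 0.20 ± 0.06 (FDR = 0.00583), and Cdc6, which loads the ring, was 0.24 ± 0.12 higher without passing the test (FDR = 0.0953).

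**Figure D1:**
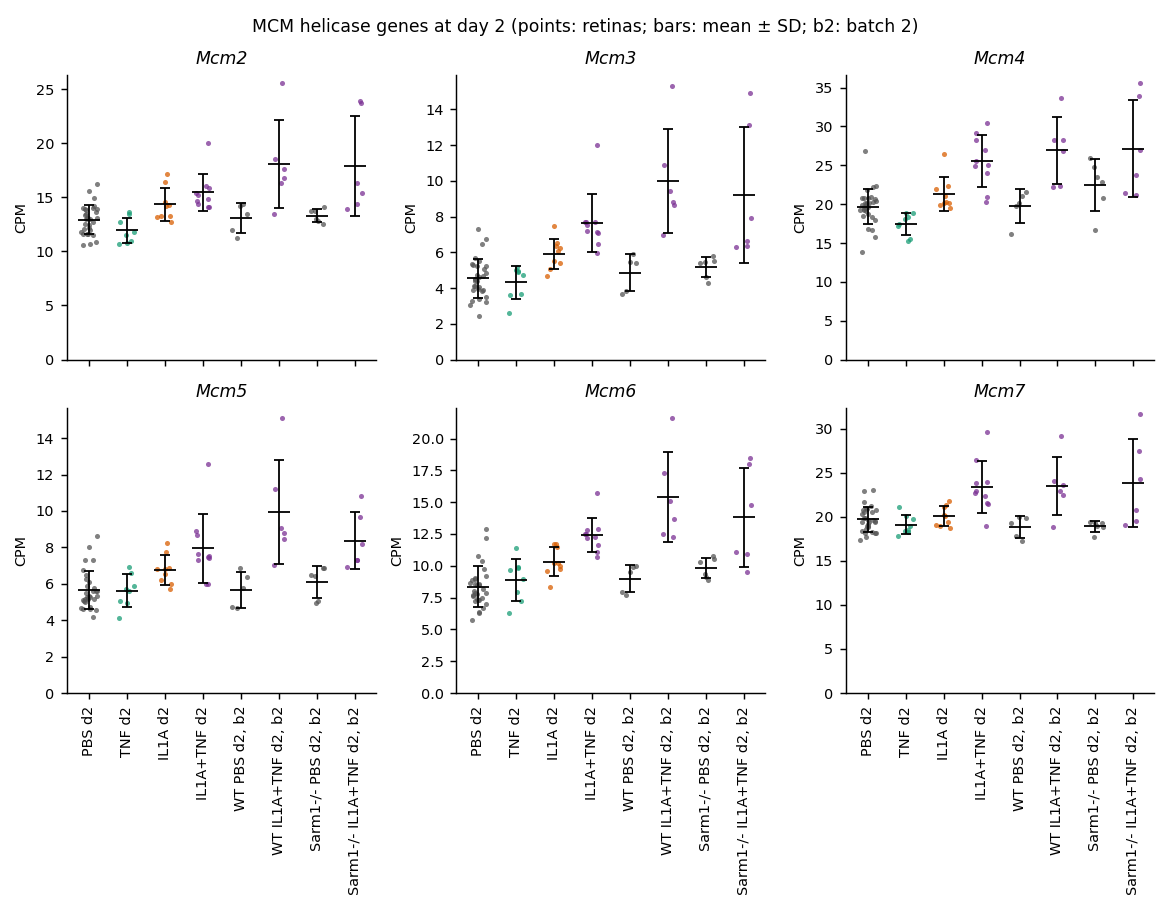
CPM of Mcm2 to Mcm7 in every retina of the day 2 groups, with 1 point per retina and bars for the mean ± SD. For Mcm6, the 10 IL1A+TNF retinas of batch 1 sit between 10.7 and 15.7 CPM, against 5.77 to 12.9 CPM in the 31 PBS retinas.

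Pcna, the sliding clamp of DNA polymerase, had the highest level per exonic kilobase of all 35 genes (25.3 CPM per kb in day 2 PBS retinas) and a small rise of 0.14 ± 0.05 (FDR = 0.0128), from 60.7 ± 5.89 to 67 ± 6.58 CPM. Rrm2, the subunit of ribonucleotide reductase that is made in S phase, rose by 0.80 ± 0.24 (FDR = 0.00415). Its PBS retinas spread from 0.296 to 5.45 CPM (median 1) and enclosed the whole range after IL1A+TNF, 1.03 to 3.16 CPM (median 1.91). Tyms, which makes thymidylate, was at -0.02 ± 0.08 (FDR = 0.858).

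Among genes of mitosis, Kif23, a kinesin of the central spindle needed for cytokinesis, had the largest change. It ranged from 0.388 to 3.75 CPM (median 1.22) after PBS and from 2.09 to 3.57 CPM (median 2.48) after IL1A+TNF, a rise of 1.09 ± 0.18 (FDR = 1.18e-06). All 10 IL1A+TNF retinas were above the PBS mean, although the highest PBS retinas reached above them. Mki67, the usual marker of proliferating cells, ranged from 2.24 to 22 CPM (median 4.82) after PBS and from 6.33 to 14 CPM (median 9.47) after IL1A+TNF, and rose by 0.85 ± 0.24 (FDR = 0.00241). Top2a, which untangles replicated DNA, rose by 0.75 ± 0.22 (FDR = 0.00395). For both genes the PBS retinas spread more widely than the treated ones, with 2 PBS retinas, of mice 60638 and 60781, near 22 CPM of Mki67.

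The kinase Aurkb rose by 0.82 ± 0.23 (FDR = 0.00221), cyclin Ccnb1 by 0.82 ± 0.27 (FDR = 0.00903) and the checkpoint kinase Bub1 by 0.71 ± 0.22 (FDR = 0.00475), each from a level under 1 CPM after PBS. Ube2c, a ubiquitin-conjugating enzyme of the anaphase promoting complex, the mitotic transcription factor Foxm1, the spindle factor Tpx2 and the kinetochore motor Cenpe were also called, with changes of 0.53 ± 0.20, 0.35 ± 0.15, 0.30 ± 0.13 and 0.27 ± 0.07. Not called were Cdk1 (0.54 ± 0.24, FDR = 0.0571), Kif11 (0.26 ± 0.13, FDR = 0.0753), Ccnb2, Aurka, Plk1, Bub1b, Cdc20, Birc5, Cenpf, Kif20a, Nusap1, Prc1 and Racgap1. Ccna2, the cyclin of S phase and G2, ranged from 16.3 to 37.5 CPM (median 26) after PBS and from 16.7 to 27.5 CPM (median 20.5) after IL1A+TNF, and fell by 0.28 on the log2 scale (SE 0.09, FDR = 0.00472). The Ccna2 ranges overlapped almost fully.

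The 2 eyes of a mouse could also be compared. In 8 mice with an IL1A+TNF eye and a PBS eye, each of Mcm2 to Mcm7 and Kif23 was higher in the treated eye of all 8, with median log2 differences of 0.60 for Mcm6, 0.59 for Mcm3 and 1.01 for Kif23. Of the other helicase genes, Cdc45 was higher in 6 of the 8 and Cdc6 in 5. Mki67 was higher in the treated eye of 6 of the 8 (median 0.99) and Ccna2 in 2 of the 8 (median -0.40). With the mouse as a fixed replicate block, so that only these pairs count, 15 genes were called higher and 0 lower, and the fall of Ccna2 (-0.24) no longer passed the test. Calls of low mitotic genes depended on the tool: edgeR's quasi-likelihood test without the block called 12 genes and DESeq2 called 13. Both tools left out Mki67 and Top2a. The PBS retinas of mice 60638 and 60781 were singled out after the data were seen, for their high levels of these same genes, so leaving them out raises the differences by construction. Without them limma and edgeR each called 22 genes higher and 1 lower, counts that are no independent support. Mcm2 to Mcm7, Kif23 and Aurkb were called under all 21 alternatives.

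**Figure D2:**
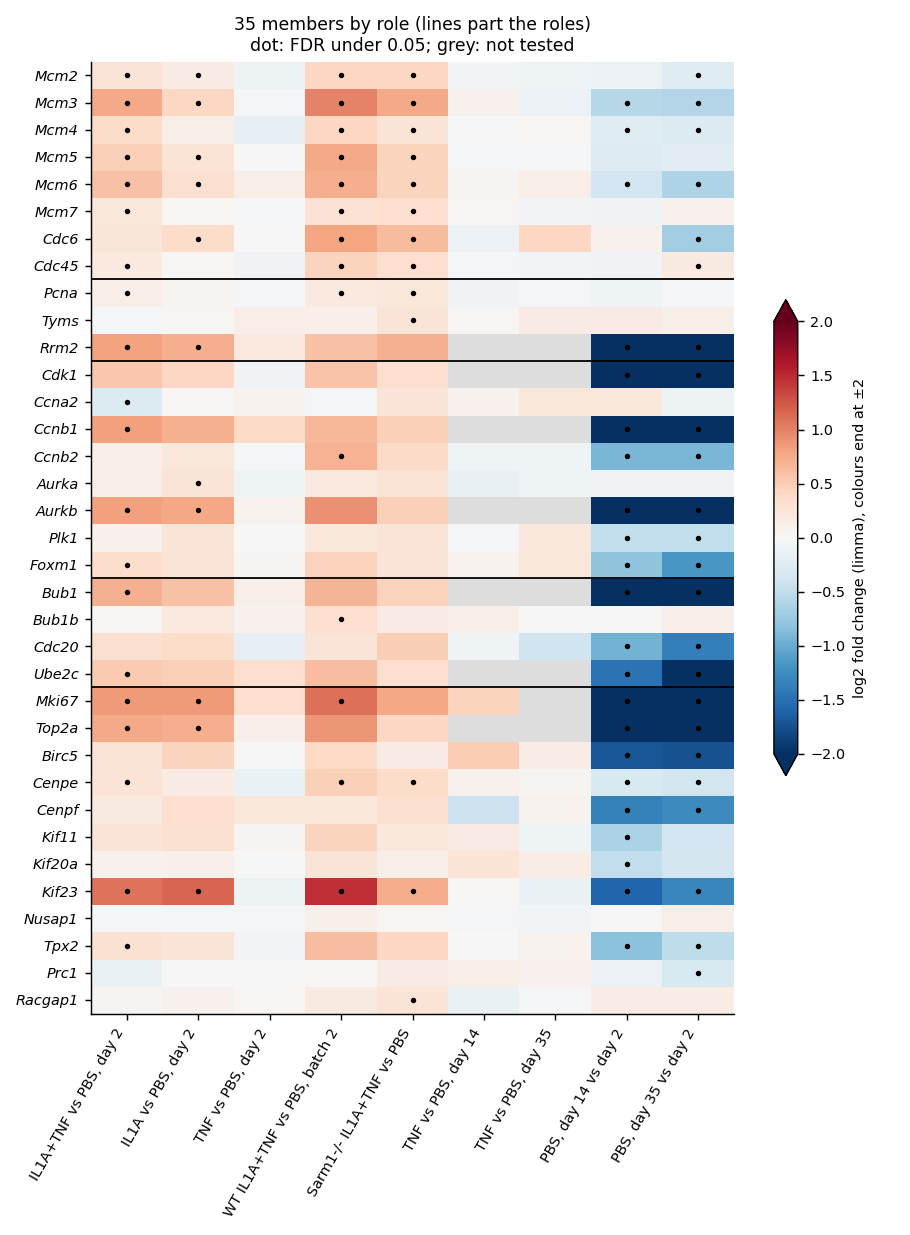
Log2 fold changes of the 35 genes (lines) in 9 comparisons (columns), with red for higher and blue for lower in the first-named group and a dot where the limma FDR was under 0.05. Dots fill 7 of the 8 helicase genes for IL1A+TNF at day 2 and are absent in all 3 TNF columns, and the columns of the later days of PBS hold the strongest blue.

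IL1A alone gave a smaller set of calls, which shares its PBS controls with IL1A+TNF. Of the 35 genes, 11 were called higher (12% of all genes) and 0 lower (9.45% of all genes), with a median of 0.264. Kif23 led again, at 1.72 to 4.18 CPM (median 2.84) in the 9 IL1A retinas, and rose by 1.16 ± 0.19 (FDR = 3.62e-06). Mki67 ranged from 5.26 to 18.2 CPM (median 9.13) and rose by 0.85 ± 0.25 (FDR = 0.0108), and Top2a rose by 0.72 ± 0.24 (FDR = 0.0197). Mcm3 rose by 0.42 ± 0.11, Mcm6 by 0.32 ± 0.08, Mcm5 by 0.27 ± 0.09 and Mcm2 by 0.16 ± 0.06, while Mcm4 (0.12 ± 0.06, FDR = 0.171) and Mcm7 (0.04 ± 0.04, FDR = 0.624) did not pass. Cdc6, Rrm2, Aurka and Aurkb were the other genes called. The count moved with the settings, with 6 genes called with the mouse as a fixed replicate block, 6 by edgeR and 4 without the retinas rich in lens markers, and it fell to 5 without mouse 60217 and to 6 without mouse 60227 or mouse 60637. Without the PBS retinas of mice 60638 and 60781, singled out for their high levels, it was 18 in limma and 17 in edgeR, again raised by that choice. Mcm3, Mcm6 and Kif23 were called under all 20 alternatives.

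TNF alone called no gene of the 35 at day 2, where 0.614% of all genes were called higher and 0.0409% lower. These shares of all genes, 120 higher and 8 lower, moved with single mice. Leaving out 1 mouse gave from 10 (mouse 60585) to 454 (mouse 60584) of all genes called, and each time 0 of the 35. A single gene of the 35 had an unadjusted p under 0.05, Mcm4 (-0.16 ± 0.07, FDR = 0.531), and edgeR and DESeq2 also called 0 genes with 1 at an unadjusted p under 0.05. Mki67 ranged from 2.19 to 14.4 CPM (median 8.06) in the 8 TNF retinas, a difference of 0.33 with a 95% interval from -0.26 to 0.93, which reaches to the size seen after IL1A. For Kif23, at 0.47 to 1.77 CPM (median 1.26), the interval ran from -0.62 to 0.41, and for Mcm3 from -0.30 to 0.22.

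Direct comparisons between the cytokine groups called between 2 and 11 of the 35 genes. IL1A+TNF exceeded IL1A in Mcm4 (0.25 ± 0.07, FDR = 0.02) and Mcm7 (0.20 ± 0.05, FDR = 0.00662) and in no other gene of the 35, where 5.39% of all genes were called higher and 4.68% lower. For Kif23 (-0.06 ± 0.22) and Mki67 (0.01 ± 0.29) no difference between IL1A+TNF and IL1A was detected. Against TNF, IL1A+TNF had 10 genes called higher (20% of all genes) and Ccna2 called lower (19% of all genes). The 10 were Mcm2 to Mcm7, Cdc45, Pcna, Cenpe (0.40 ± 0.10) and Kif23 (1.20 ± 0.28). IL1A exceeded TNF in Mcm2, Mcm3, Mcm4 and Kif23 (5.39% of all genes) and was lower in none (3.68% of all genes), with Kif23 higher by 1.26. The test of whether the combined effect departed from the sum of the single ones on the log2 scale called Mcm4 (0.40 ± 0.10, FDR = 0.0147) and Mcm7 (0.23 ± 0.07, FDR = 0.0411), against 1.78% of all genes called higher and 1.82% lower. With the mouse as a fixed replicate block, 0 genes of the 35 were called for IL1A+TNF against IL1A, for IL1A against TNF and for this interaction, and 4 for IL1A+TNF against TNF. Of all 19476 genes tested with that block, 1, 1, 0 and 2804 were called, in the same order. A count of 0 among the 35 therefore says little about these genes.

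**Figure D3:**
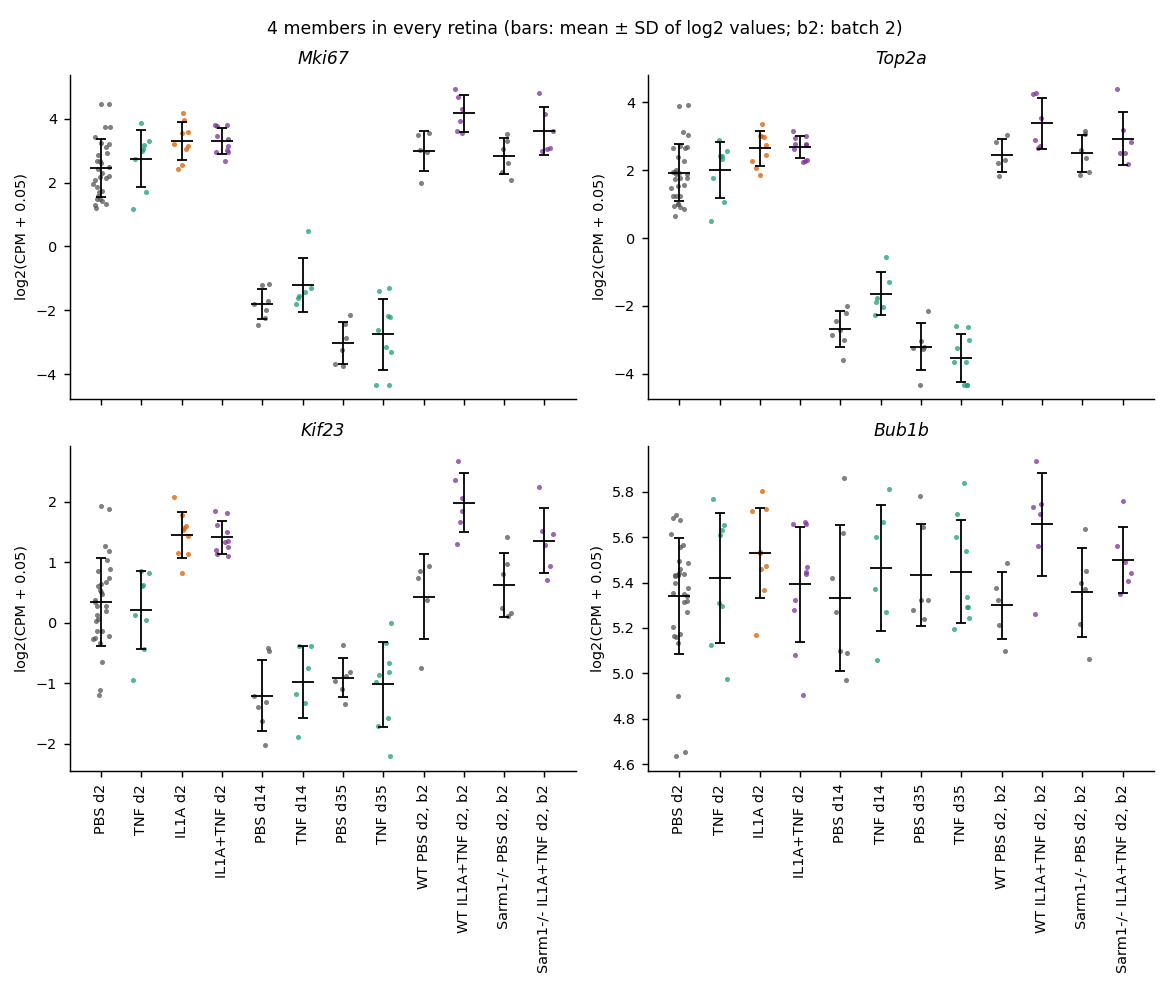
Log2(CPM + 0.05) of Mki67, Top2a, Kif23 and Bub1b in every retina by group, with bars for the mean ± SD of the log2 values. Mki67 and Top2a of all day 2 groups lie above every retina of days 14 and 35, whereas Bub1b lies between 24.8 and 61.1 CPM throughout.

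The second batch held a separate set of WT mice given PBS or IL1A+TNF. There, 14 of the 35 genes were called higher (19.6% of all genes) and 0 lower (18.1% of all genes), with a median of 0.448, and 34 of 35 were positive. All 8 helicase genes were called. Mcm3, Mcm4, Mcm5, Mcm6, Cdc45, Kif23, Cenpe and Bub1b were called under all 15 alternatives. Mcm2, Mcm7, Cdc6, Pcna, Mki67 and Ccnb2 lost the call under some. Of the 20 genes called in batch 1, 11 were called in the same direction in batch 2 (55% of the 20 and 78.6% of the 14): Mcm2 to Mcm7, Cdc45, Pcna, Mki67, Cenpe and Kif23.

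Mcm6 was at 9.96, 9.48, 7.74, 7.91 and 9.89 CPM in the 5 PBS retinas and at 12.3 to 21.6 CPM (median 14.4) in the 6 IL1A+TNF retinas (rise of 0.73 ± 0.14, FDR = 0.00268). Mcm3 was at 5.4, 5.45, 3.83, 3.66 and 5.91 CPM after PBS and at 6.94 to 15.3 CPM (median 9.12) after IL1A+TNF (0.99 ± 0.19, FDR = 0.00258). Kif23 was at 1.88, 1.63, 0.544, 1.76 and 1.25 CPM after PBS and at 2.43 to 6.33 CPM (median 3.84) after IL1A+TNF (1.46 ± 0.26, FDR = 0.00153). Cdc6, not called in batch 1, rose by 0.79 ± 0.21 (FDR = 0.0126). Mki67 was at 11.6, 11.1, 3.88, 8.06 and 7.71 CPM after PBS and at 11.7 to 30.2 CPM (median 17.4) after IL1A+TNF, and rose by 1.10 ± 0.30 (FDR = 0.0154). The lowest treated retina and the highest PBS retina nearly touched. Bub1b, a checkpoint kinase, and Ccnb2, a B cyclin, were called in this batch (0.33 ± 0.08 and 0.70 ± 0.21), and Ccna2 was at -0.02 ± 0.12 (FDR = 0.924).

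The helicase genes also rose in Sarm1-/- retinas. After IL1A+TNF, 13 of the 35 genes were called higher (21.3% of all genes) and 0 lower (22.2% of all genes), with a median of 0.333 and 35 of 35 positive. All 8 helicase genes were among the 13, and 11 of the 13 (84.6%) were also called in WT retinas of batch 2 (78.6% of those 14). Of the helicase genes, Mcm2, Mcm3, Mcm7 and Cdc45 were called under all 22 alternatives. Mcm4, Mcm5, Mcm6 and Cdc6 lost the call under some. Mcm3 ranged from 4.3 to 5.81 CPM (median 5.41) after PBS and from 6.27 to 14.9 CPM (median 7.28) after IL1A+TNF (0.75 ± 0.18, FDR = 0.000342). Mcm7 rose by 0.33 ± 0.07 (FDR = 0.000178), Mcm2 by 0.41 ± 0.10 (FDR = 0.000646) and Kif23 by 0.74 ± 0.29 (FDR = 0.0306), and Racgap1, the partner of Kif23 in the central spindle, rose by 0.27 ± 0.09 (FDR = 0.0107). Mki67 ranged from 4.22 to 11.5 CPM (median 7.14) after PBS and from 7.86 to 28.1 CPM (median 10.2) after IL1A+TNF, and its change of 0.77 ± 0.35 did not pass (FDR = 0.0661). One retina, of mouse 61926, set the upper end of several of these ranges, and without this mouse 6 genes were called (8 without mouse 61924, and 7 with batch 2 fitted alone). With the mouse as a fixed replicate block in batch 2, an alternative added after the data were seen, 10 genes were called, while Mcm4 (0.28), Kif23 (0.74), Racgap1 (0.27), Pcna and Tyms no longer passed. In the same fit the genotype difference of Ccna2 described next was 0.22 and not called, where 0 of all 19618 genes were called for that difference.

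Direct tests of genotype called few of these genes. Sarm1-/- and WT retinas differed in 0 of the 35 genes after PBS (0.00496% of all genes were higher and 0.0347% lower; 3 of the 35 had an unadjusted p under 0.05, and 3 in edgeR and in DESeq2, which also called 0). After IL1A+TNF they again differed in 0 (4.04% of all genes were higher and 10.8% lower; 1 with an unadjusted p under 0.05, Kif23 at -0.54 with a 95% interval from -1.04 to -0.04, and 0 in edgeR and in DESeq2). The difference in the response to IL1A+TNF between genotypes was called for Ccna2 alone (0.44 ± 0.14, FDR = 0.0356, where 1.51% of all genes were called higher and 7.24% lower). Ccna2 went from 23.9 ± 2.97 to 27.8 ± 2.43 CPM in Sarm1-/- retinas (SD, n = 6 each) and from 26.8 ± 2.83 (n = 5) to 27.2 ± 4.79 CPM (n = 6) in WT retinas of batch 2. That call rested on the WT retinas of both batches, and with batch 2 alone the difference was 0.27 and not called. With batch 2 alone, 0 of all 19668 genes were called for this difference in response. For Mki67 the difference in response was -0.17 with an interval from -0.98 to 0.65.

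The largest differences among the 35 genes lay between days rather than between treatments. From day 2 to day 14 after PBS, 22 genes fell (10.5% of all genes) and 0 rose (8.68% of all genes), with a median of -0.492 against 0.008 for all genes. From day 2 to day 35, 23 fell (17.4% of all genes) and 1 rose (15.4% of all genes), with a median of -0.512. Both comparisons share the 31 retinas of day 2. The falls covered 6 of 8 cyclins and kinases and 3 of 4 checkpoint genes on each day, 9 and 8 of the 12 chromosome and spindle genes, 3 and 5 of the 8 helicase genes, and Rrm2 alone of the 3 clamp and nucleotide genes. All retinas of days 14 and 35 came from batch 1, and each day had its own mice. In the fits of TNF at the later days, Rrm2, Cdk1, Ccnb1, Aurkb, Bub1, Ube2c and Top2a had too few counts to be tested, as had Mki67 at day 35. Between days these genes passed the count filter through the day 2 retinas. They could hardly have come out higher at the later days, so the filter set the direction of their falls in advance.

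Mki67 ranged from 2.24 to 22 CPM (67 to 905 counts) in the 31 PBS retinas of day 2, from 0.133 to 0.394 CPM (4 to 14 counts) in the 7 of day 14 and from 0.0242 to 0.174 CPM (1 to 6 counts) in the 6 of day 35. It fell by 4.42 on the log2 scale to day 14 (SE 0.96, FDR = 0.000793) and by 6.06 to day 35 (SE 1.46). Top2a ranged from 1.52 to 15.1 CPM at day 2, 0.0329 to 0.197 CPM at day 14 and 0 to 0.174 CPM at day 35, with falls of 4.98 (SE 1.01) and 5.85 (SE 1.28). With so few counts at the later days the size of these falls was poorly fixed, although no later PBS retina reached the lowest day 2 retina. Such a gap between the 31 PBS retinas of day 2 and the 13 later ones was found for Mki67, Top2a, Bub1 and Birc5, the survivin of the chromosomal passenger complex, 4 of the 35 genes against 0.640% of all genes. When all 81 retinas of day 2, of either batch, genotype and treatment, were set against all 28 of days 14 and 35, Mki67 and Top2a were 2 of the 10 genes without overlap (0.0516% of all genes). Because Top2a and Bub1, and Mki67 at day 35, passed the filter through day 2 retinas, both counts without overlap are a description and no test.

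Aurkb, Ccnb1, Rrm2, Bub1, Cdk1 and Ube2c passed the filter through day 2 retinas, so their falls are given as sizes and are no test. Aurkb fell by 2.68 to day 14 (SE 0.54) and by 4.42 to day 35 (SE 0.64). At day 35 its 6 retinas held 0 to 2 counts each, so that the size of this fall rests on few counts. Ccnb1 fell by 3.13 and 2.09, Rrm2 by 2.76 and 3.06, Bub1 by 2.68 and 2.52, Cdk1, the main kinase of mitosis, by 2.05 and 2.85, and Ube2c by 1.48 and 2.25, to day 14 and day 35 in that order. Birc5, the motor Kif23, the kinetochore protein Cenpf and Cdc20, which activates the anaphase promoting complex, fell by between 0.94 and 1.74. In any PBS retina of the later days Rrm2 held at most 12 counts, and Bub1 and Ccnb1 at most 10 each. Helicase genes, which had enough counts to be tested on the later days too, fell less than the genes picked through day 2. Mcm3 fell by 0.57 and 0.59, Mcm6 by 0.38 and 0.61, and Mcm4 by 0.24 and 0.27, while Mcm2 (0.25) and Cdc6 (0.70) fell to day 35 alone.

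Another set of the 35 was not called between the days. Bub1b ranged from 24.8 to 51.8 CPM (median 42.1) at day 2, from 31.3 to 58 CPM (median 38.6) at day 14 and from 37.7 to 55 CPM (median 40) at day 35, with differences of 0.01 ± 0.10 and 0.10 ± 0.11. For Pcna these differences were -0.08 ± 0.06 and -0.03 ± 0.06, for Mcm7 -0.07 ± 0.05 and 0.08 ± 0.05, and for Nusap1, a microtubule-bundling protein, -0.00 ± 0.09 and 0.12 ± 0.09. Ccna2, Aurka, Tyms, Mcm5 and Racgap1 were not called on either day, and Cdc45 was the gene that rose to day 35 (0.18 ± 0.07, FDR = 0.0374). The genes with the most RNA per kilobase at day 35 were Pcna (24.5 CPM per kb), Bub1b (10.2), Ccna2 (5.83), Mcm7 (4.66) and Mcm4 (4.5). Of these, Mcm4 was called lower on both later days. Mki67 (from 0.664 at day 2 to 0.00832 CPM per kb at day 35) and Top2a (from 0.505 to 0.00763) were near the bottom at day 35.

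**Figure D4:**
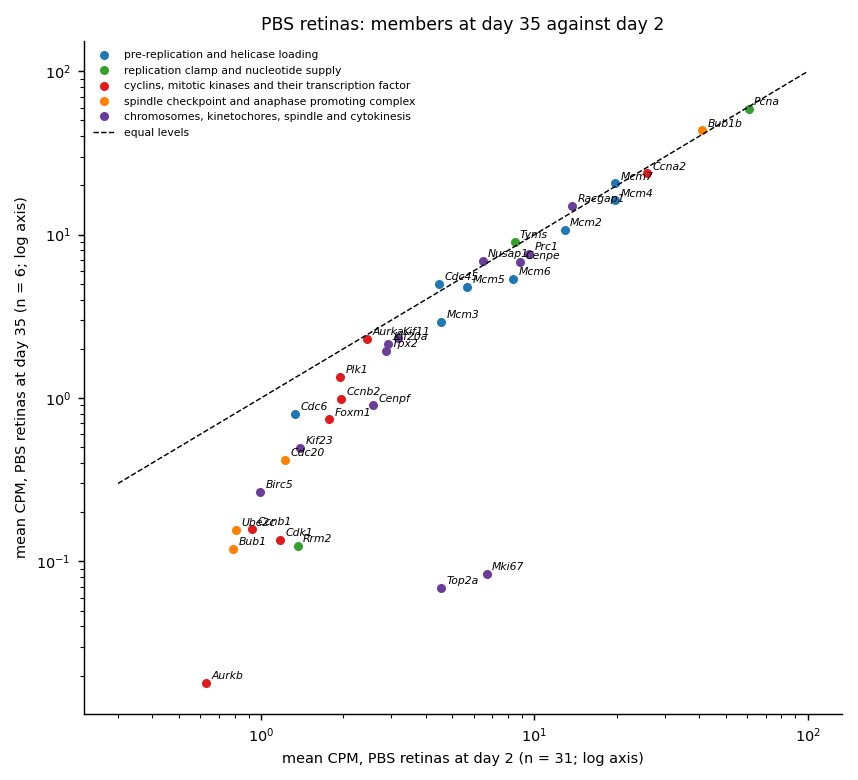
Mean CPM of each of the 35 genes in PBS retinas at day 35 (n = 6) against day 2 (n = 31), on log axes with a dashed line of equal levels. Mki67 falls from 6.68 to 0.0837 CPM, far under the line, while Bub1b (41.1 and 43.6 CPM) and Pcna (60.7 and 58.9 CPM) lie on it.

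Without the PBS retinas of mice 60638 and 60781, 22 genes were again called lower at day 14 and 23 at day 35, and Cdc45 no longer passed.

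TNF at the later days called no gene. At day 14, 28 of the 35 genes had enough counts to be tested and 0 were called by limma, edgeR or DESeq2 (0% of all genes), with 0 at an unadjusted p under 0.05 in limma and 1 in edgeR. At day 35, 27 were tested and 0 were called by the 3 tools (0% of all genes), with 2 at an unadjusted p under 0.05 in each, which in limma were Ccna2 (0.23, interval 0.06 to 0.40) and Cdc6 (0.42, interval 0.08 to 0.76). Mki67 ranged from 0.235 to 1.34 CPM (median 0.304) in the 6 TNF retinas of day 14, and the highest of them also held the most lens, microglial and monocyte marker RNA of its group (sums of 6970, 125 and 145 CPM) and the most Ccr2 (1.76 CPM). At day 35 it ranged from 0 to 0.359 CPM (median 0.114) after TNF, around the PBS values.

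Many of the 35 genes varied together among the PBS retinas of day 2. The median Pearson r over the 595 pairs of the 35 genes was 0.46 (Spearman 0.38, n = 31 retinas), as a description of libraries that share their total count and dissection. With Mki67, r was 0.96 for Top2a, 0.92 for Cenpf, 0.90 for Ccnb1 and 0.88 for Bub1, and 0.24 for Bub1b, 0.20 for Pcna, 0.18 for Mcm7, 0.12 for Tyms and 0.00 for Ccna2. The split did not follow the calls between days: of the genes that fell, Mcm4 (0.33), Cenpe (0.35) and Plk1 (0.37, Spearman 0.09) were weakly correlated with Mki67, and of those not called, Mcm5 (0.62), Aurka (0.53) and Racgap1 (0.52) were more so.

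Microglial markers, and those of monocytes and macrophages, had higher medians after TNF, IL1A and IL1A+TNF than after PBS at day 2. In PBS retinas of the later days their medians were lower. Müller glia markers had medians of 5490, 5400, 4610 and 4650 CPM after PBS, TNF, IL1A and IL1A+TNF at day 2, and astrocyte markers of 335, 320, 385 and 505 CPM. In PBS retinas of days 14 and 35 the medians were 5940 and 5330 CPM for Müller glia and 227 and 148 CPM for astrocytes. How these levels relate to the 35 genes was not tested. Microglial markers summed to 93.6 to 166 CPM (median 133) in PBS retinas of day 2, 83.6 to 216 CPM (median 183) after TNF, 155 to 257 CPM (median 230) after IL1A and 167 to 300 CPM (median 241) after IL1A+TNF. They fell to 61.8 to 78.6 CPM (median 71.2) in PBS retinas of day 14 and 45.1 to 56.8 CPM (median 54.2) at day 35. Of the 12 microglial markers, 8 were called higher and 2 lower after IL1A+TNF (24.9% and 25.5% of all genes). After TNF 2 were called higher (0.614% of all genes). On each later day of PBS 12 were called lower (10.5% of all genes at day 14 and 17.4% at day 35).

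Monocyte and macrophage markers summed to 108 to 253 CPM (median 171) after PBS at day 2, 99.8 to 370 CPM (median 298) after TNF, 229 to 514 CPM (median 330) after IL1A and 330 to 769 CPM (median 422) after IL1A+TNF, and to 72.7 to 102 CPM (median 80) after PBS at day 35. Ccr2, the chemokine receptor of immigrant monocytes, averaged 5.12 CPM after PBS at day 2, 24.1 CPM after TNF, 37 CPM after IL1A, 35.8 CPM after IL1A+TNF and 0.0264 CPM after PBS at day 35. After TNF it spread from 0.0627 to 46.5 CPM, around the PBS range of 0.277 to 15.8 CPM (log2 difference 1.89 ± 0.56, FDR = 0.125), and after IL1A+TNF it rose by 3.32 ± 0.46 (FDR = 1.71e-08). The lowest TNF retina (0.0627 CPM) and the highest PBS retina (15.8 CPM) were the 2 eyes of mouse 60584. That TNF eye also had the lowest microglial marker sum (83.6 CPM) and the least Mki67 (2.19 CPM) of its group, and the cause was not tested. Neutrophil markers had medians of 38.2, 47.4, 235 and 282 CPM in these 4 groups of day 2, in the same order. Elane and Mpo, markers of dividing neutrophil precursors, stayed at or under 0.101 and 0.142 CPM in every retina, and Cd3e of T cells at or under 0.44 CPM.

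Other markers were given for the same comparison of IL1A+TNF with PBS at day 2: 8 of 12 endothelial and pericyte markers were called higher and 1 lower, 5 of 12 Müller glia markers higher and 5 lower, 5 of 10 astrocyte markers higher and 3 lower, and 2 of 7 T and B cell markers higher. Lower were 9 of 10 markers of the pigment epithelium, 7 of 8 of rods, 8 of 8 of cones and 10 of 12 of RGCs, and 2 of 7 of erythrocytes, while 0 of 10 lens markers were called. Of all genes tested, 24.9% were called higher and 25.5% lower in this comparison. The counts for T and B cells and for erythrocytes lay near these shares. From day 2 to day 35 after PBS, 9 endothelial markers were called lower (17.4% of all genes) and 7 rod and 8 RGC markers higher (15.4% of all genes). The part of these shifts in cell makeup in the levels of the 35 genes was not tested.

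**Figure D5:**
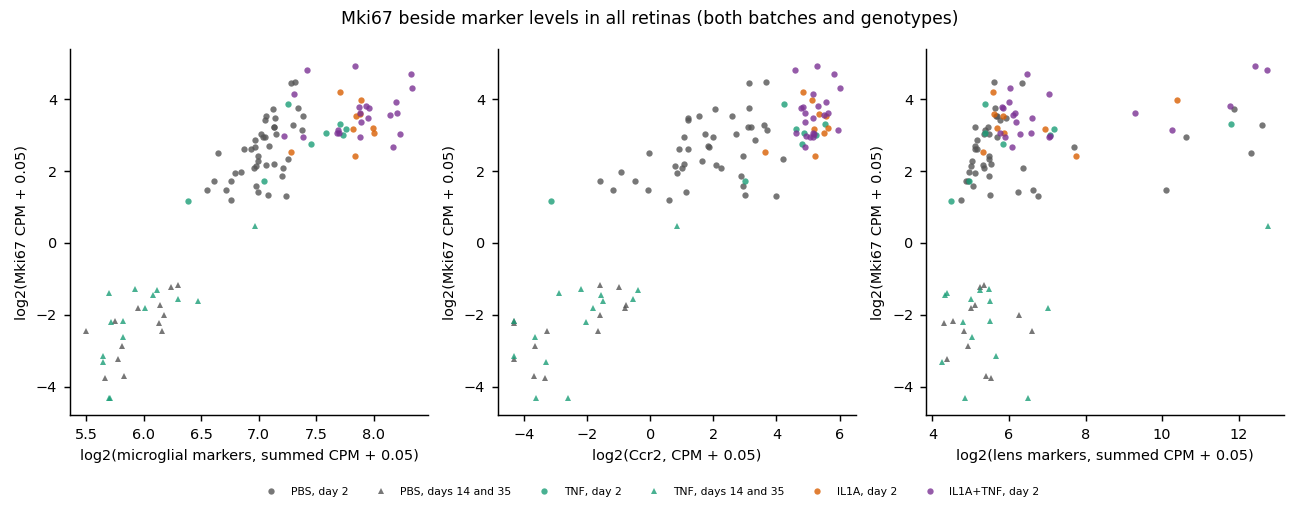
Log2(Mki67 CPM + 0.05) of each retina against the log2 of the summed microglial markers, of Ccr2 and of the summed lens markers, coloured by treatment, with circles for day 2 and triangles for days 14 and 35. Against microglial markers, retinas of the later days, with sums of 45.1 to 78.6 CPM after PBS, sit at the bottom left. After TNF, 2 retinas of day 14 (sums of 88.9 and 125 CPM) lie within the day 2 range, which starts at 83.6 CPM. The day 2 range starts at the TNF eye of mouse 60584.

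The other genes of the cell cycle, from lists drawn up by function with earlier results of these data known, moved in both directions after IL1A+TNF at day 2. Among 30 other replication genes, 12 were called higher and 3 lower, where 24.9% and 25.5% of all genes tested were, with Asf1b, a histone chaperone, at 0.85, Gins2, a partner of the helicase, at 0.68 and Mcm10, a replication initiation factor, at -0.73. Among 15 E2F, pocket protein and MYB partner genes, 6 were higher and 2 lower, with E2f2 at 1.23 (FDR = 1.95e-12), E2f8 at 1.16 and Lin9, a partner of MYB proteins, at 0.55. Among 8 D and E cyclins and their kinases, 3 were higher and 1 lower, with Cdk4 at 0.24, Ccnd3 at 0.23 and Ccne2 at -0.18. Of 7 CDK inhibitors tested, Cdkn1a, which encodes p21, rose by 1.16 ± 0.13 (FDR = 8.47e-11) and Cdkn2b by 0.54, and Cdkn1c fell by 0.21.

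Among 54 other mitosis genes, 18 were called higher and 10 lower, against the same 24.9% and 25.5% of all genes. The lowest was Spc25, a kinetochore subunit, which averaged 53.5 CPM after PBS and 12.9 CPM after IL1A+TNF and fell by 2.08 on the log2 scale. It also fell after IL1A (1.92) and after IL1A+TNF in batch 2 (2.39) and in Sarm1-/- retinas (2.33). From day 2 to day 35 after PBS it rose, to 105 CPM (1.03), as did Ect2, a regulator of cytokinesis (0.65), in the opposite direction to Mki67. Over these days 22 of the other mitosis genes were called lower and 5 higher, and 6 of the other replication genes lower and 0 higher, where 17.4% of all genes were lower and 15.4% higher, with E2f8 at -3.05 and the D cyclin Ccnd2 at -1.76. TNF at day 2 called 0 genes of these 5 lists. Between genotypes after IL1A+TNF, Cdkn1a was higher in Sarm1-/- retinas by 0.84 (FDR = 0.0249) and Cdkn2b by 0.83 (FDR = 0.0278). In those Sarm1-/- retinas Cdkn1a spread from 5.44 to 57 CPM (median 12), against 7.27 to 14 CPM (median 10.6) in WT retinas of batch 2. Cdkn2b spread from 0.876 to 6.85 CPM (median 1.94), against 0.943 to 2 CPM (median 1.14). Of all genes, 814 were called higher and 2174 lower in this comparison. Without mouse 61924 the total was 270, without mouse 61926 353, and with batch 2 alone 129.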

How the data were processed

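Paired reads were mapped by the authors with STAR 2.7.9a (mm10) and summed per gene by featureCounts (Subread 2.0.1), and the deposited values are raw counts of 37315 genes in 109 retinas. Of these, 35449 IDs were given a symbol from GENCODE M21. Counts were analysed in R 4.3.3. Low genes were removed with filterByExpr (minimum count 10, minimum total 15), a filter chosen here. The rest followed the authors' design: TMM in edgeR 4.0.16, and voom and duplicateCorrelation in limma 3.58.1 with the mouse as a block (here in 2 rounds), with terms for group and sex and, for Sarm1-/-, batch. The block comes from the mouse numbers in the titles. Its correlation was 0.0515 at day 2, 0.284 at day 14, 0.0794 at day 35, 0.106 in WT of batch 2 and 0.00525 in the Sarm1-/- fit (81 retinas of day 2). PBS retinas of 3 days (44 from 43 mice) were fitted without it, so the 2 retinas of 1 mouse at day 14 counted as independent. Genes tested numbered between 17821 and 20154. Alternatives used edgeR, DESeq2 1.42.0, other filters and factors, no sex term, and left-out mice. The models were run on simulated counts that held no mouse effect, and the first comparison of each fit was checked. The mouse block, the interactions and the genotype contrasts were therefore not checked in that way. The genes and lists were chosen with earlier results of these data known. All 35 genes are named by rule, and of each other pathway list up to 3 with the smallest FDR in a comparison are named. The annotation release used for counting is not given in the sources used here.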

Additional observations from a re-analysis of the deposited data

Results flagged for a closer look

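In groups of 4 to 10 retinas, the highest or lowest value of a gene was compared with the others by Dixon's criterion, and 27 of 385 combinations of gene and group had a retina apart, where chance gives about 1 in 20. Many of the genes vary together, so the combinations are not independent. Values are CPM.

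The IL1A+TNF retina of Sarm1-/- mouse 61926 accounted for 8 of these, all high: Rrm2 at 10.9 (the other 5 at 1.08 to 3.89), Top2a at 20.9 (4.53 to 9.02), Aurkb at 2.84 (0.713 to 1.46), Plk1 at 3.95 (1.84 to 2.6), Foxm1 at 5.66 (1.62 to 3), Cdc20 at 4.15 (0.986 to 2.13), Birc5 at 3.67 (0.967 to 1.5) and Kif11 at 7.29 (3.29 to 4.61). That retina also had a lens marker sum of 6840, an RGC marker sum of 155, and monocyte and neutrophil marker sums of 882 and 1110 (group medians 434 and 417), and the part of any of them was not tested. The PBS retina of the same mouse was low for Mcm7, at 17.7 (18.8 to 19.4).

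The IL1A+TNF retina of mouse 60212 was high for 4 of the 6 helicase subunits: Mcm2 at 20 (the other 9 at 14.1 to 16), Mcm3 at 12 (5.94 to 7.72), Mcm5 at 12.6 (5.98 to 8.88) and Mcm6 at 15.7 (10.7 to 12.9). Its monocyte and neutrophil marker sums, 769 and 1050, were the highest of the group, and its lens marker sum was 1220, where the retina of mouse 60583 had 3480. Their part was not tested. In that group the retina of mouse 60779 was high for Tyms at 10.2 (7.63 to 8.9) and Plk1 at 3.03 (1.5 to 2.22).

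After IL1A at day 2, Mcm4 stood at 26.5 in mouse 60637, Cdk1 at 2.66 in mouse 60217 and Cenpf at 5.92 in mouse 60227. After TNF at day 2, mouse 60639 was high for Cdc6 at 2.21 and Bub1 at 1.88. After TNF at day 14, Mki67 stood at 1.34 in mouse 59829 (the other 5 at 0.235 to 0.357), whose lens, microglial and monocyte marker sums were 6970, 125 and 145, the highest of the group, Ccnb1 at 0.409 in mouse 59708, and in mouse 59709 Mcm5 was high at 5.96 and Prc1 low at 6.18. At day 35, Ccnb1 stood at 0.513 in mouse 59896 and Aurkb at 0.171 in mouse 59892 after TNF, and Bub1 at 0.267 in mouse 59894 after PBS.

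For 3 results the effects of 2 settings differed by a test of the difference itself. The effect of TNF differed with and without IL1A for Mcm4, by 0.40 on the log2 scale, and for Mcm7, by 0.23, and the effect of IL1A+TNF on Ccna2 differed between genotypes by 0.44. None of the 3 was called under all alternatives. With the mouse as a fixed replicate block, neither Mcm4 nor Mcm7 was called. The Ccna2 call was lost in edgeR, in DESeq2, with no filter, with batch 2 alone and without mouse 61924 or 61926. Sarm1-/- retinas came from batch 2 alone.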

How the results depend on the processing

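The alternatives changed the number of genes called more often than any direction. Among the changes followed, no direction was reversed. Of the recomputed counts, 207 stayed within 1.5 times and 31 did not, and the 207 include counts of 0 that stayed 0. Single called genes were followed for IL1A+TNF and IL1A against PBS at day 2, IL1A+TNF in batch 2 and in Sarm1-/-, and the 2 interactions. For PBS by day only some named genes were followed, and for direct comparisons of cytokine groups none. Of these changes 685 still passed the test and 123 did not, with left-out mice merged into 1 entry per gene and comparison. For IL1A+TNF against PBS at day 2 (20 genes), edgeR called 12 and DESeq2 13, and leaving out 1 mouse gave 17 to 21. For IL1A (11), edgeR called 6, DESeq2 7, the mouse as a fixed replicate block 6, and leaving out 1 mouse gave 5 to 14. The same replicate block gave 0 for IL1A+TNF against IL1A (2), 0 for IL1A against TNF (4), 4 for IL1A+TNF against TNF (11) and 0 for the interaction (2), for which no filter on low counts gave 1. Of all genes, that block called 1 for IL1A+TNF against IL1A, 1 for IL1A against TNF and 0 for the interaction. For IL1A+TNF in Sarm1-/- (13), batch 2 alone gave 7, with the replicate block 10, and leaving out 1 mouse 6 to 14. For genotype by treatment (1), batch 2 alone (with or without the replicate block), DESeq2, edgeR and no filter gave 0, and leaving out 1 mouse gave 0 to 1, with 0 without mouse 61924 or 61926. Of all genes, batch 2 alone called 0 for genotype by treatment, with or without the block. Alternatives chosen after the data were seen left out 2 kinds of retinas. Without retinas rich in lens markers the counts were 4 for IL1A, 0 for IL1A+TNF against IL1A, 1 for the interaction, 7 for Sarm1-/- and 0 for genotype by treatment. Without the PBS retinas of mice 60638 and 60781, picked for high levels of these genes and so raising counts by construction, they were 18 for IL1A (17 in edgeR) and 4 for IL1A+TNF against IL1A. The replicate block moved no other count it was run for by over 1.5 times; it was not run for genotype contrasts between mice or for PBS by day, where no mouse spans the groups. For these counts the cause was not tested. Mki67 lost its call in batch 2 without mouse 61927 (0.95). At 30014757 to 79064488 counts per retina, Mki67 held at most 14 counts in any PBS retina of the later days, so the size of its fall is imprecise, and 28 and 27 of the 35 genes could be tested for TNF at days 14 and 35.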
